A study of Mus musculus with 6 samples.

Results

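The BCL2 family decides at the mitochondrion whether a cell lives or dies, and 10 of its genes were followed here across 6 mouse stem cell arrays. The members were Bcl2, Bcl2l1, Mcl1, Bcl2l11, Bbc3, Bmf, Bad, Bak1, Bid and Pmaip1. They were found by symbol: every probe set whose platform annotation gave a member as its single gene symbol was taken, which gave 32 of the 35877 probe sets tested and 10 of 18193 genes. The rule for taking probe sets used no measured value, but the list of members was drawn up with earlier results of these data known. The number of probe sets was 6 for Mcl1, 5 each for Bcl2 and Bcl2l11, 4 for Bcl2l1, 3 each for Bmf and Bid, 2 each for Bad and Bak1, and 1 each for Bbc3 and Pmaip1.

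Affymetrix arrays measured RNA of haematopoietic stem cells sorted from mouse bone marrow as GFP-positive, lineage-negative, c-Kit-positive and Sca-1-positive. Vector cells had been transduced with GFP vector alone, BCR/ABL cells carried the fusion kinase of chronic myeloid leukaemia and came from untreated mice with the disease, and BCR/ABL imatinib cells came from such mice given imatinib, an inhibitor of that kinase. All 3 groups share the sort for GFP, and each had 2 arrays, called replicates 1 and 2. The purpose stated for the series was to find genes under the control of BCR/ABL in these cells. The labels state no promoter for the fusion gene, no strain or age of the mice and no dose or length of the imatinib treatment. Whether a group's arrays stand for different animals is not stated either, so a p-value here measures the spread of these samples alone, and that spread may be technical.

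Members of the family share short regions called BCL2 homology (BH) domains and act by binding one another. Bcl2, Bcl2l1 (whose long product is Bcl-xL) and Mcl1 encode survival proteins that hold death proteins in check. Bcl2l11 (Bim), Bbc3 (Puma), Bmf, Bad, Bid and Pmaip1 (Noxa) encode BH3-only proteins, sensors that report stress or loss of growth factor signals by neutralizing survival proteins or by activating effectors. Bak1 encodes an effector that forms pores in the outer mitochondrial membrane, through which cytochrome c leaves to start the caspase cascade. In blood cells with BCR/ABL, Bcl-xL is known as a product under STAT5 control, and Bim as a gene that FOXO factors turn on and that kinase signalling holds down.

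Promoter sequence is shown for the genes whose windows held the letters that FOXO factors prefer. This was chosen because Bcl2l11 is the member with the largest difference between imatinib and untreated BCR/ABL cells as tested. The part of FOXO factors in that difference was not tested. In the RefSeq promoter table for GRCm38.p6, with windows from 250 bases before to 50 after each gene start, 9 of the 10 members had entries, 17 windows in all, and Pmaip1 had none. The motif TGTTTAC, searched on both strands, was in 1 window of Bcl2l11 and 1 window of Bbc3, or 2 of 17 member windows, against 3.65% of all 32851 windows. In the Bcl2l11 window the letters lie on the reverse strand and begin 227 bases before the start. The 250 bases before that start, at chr2:128125788-128126037 on the plus strand, are given 5′ to 3′ with the motif in capitals, followed by the shorter stretch of Bbc3 at chr7:16310084-16310110, also on the plus strand, where the motif begins 167 bases before a start.
Bcl2l11: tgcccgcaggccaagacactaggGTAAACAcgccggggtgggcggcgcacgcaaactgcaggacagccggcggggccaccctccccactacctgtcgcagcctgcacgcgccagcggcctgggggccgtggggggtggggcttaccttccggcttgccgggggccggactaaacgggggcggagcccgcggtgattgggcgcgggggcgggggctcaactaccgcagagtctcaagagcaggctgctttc
Bbc3: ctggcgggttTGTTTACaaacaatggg
The STAT motif TTCNNNGAA was in 0 of the 17 windows and in 8.3% of all windows, and the E-box CACGTG was in 1 window, of Bbc3, against 7.15% of all windows. No motif overlapped another. The windows of Bcl2, Bbc3 and Bcl2l11 had the highest GC content among the members, 71.0% to 78.0%, and those of Bcl2l1, Bmf and Bak1 the lowest, 49.3% to 58.7%, against a median of 52.7% over all windows. A match describes the letters of these windows, and no match says only that the letters are not there.

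Levels are given as log2(intensity + 16) after quantile normalization between arrays, on which the floor is 4. Vector arrays were the least alike: correlation over probe sets was 0.971 for the vector replicates, 0.99 for BCR/ABL and 0.985 for imatinib. Vector replicate 2 correlated more with the closest array of another group, at 0.981, than with vector replicate 1. Probe sets over 2-fold apart between replicates numbered 3694 for vector, 860 for BCR/ABL and 1611 for imatinib. Of 10 listed stem and progenitor markers 9 were measured. The missing marker was Ly6a, the gene of Sca-1, so that part of the sort could not be read here. Kit, which the sort also used and which is a mast cell marker too, lay between 10.13 and 11.39 on all arrays. Markers of other cell types were present too. Over 12 B cell markers the summed intensity was 34300 and 13400 for vector, 3090 and 4000 for BCR/ABL, and 1680 and 5280 for imatinib; Pax5, a defining B cell factor, lay at the floor on every array, between 4.06 and 4.18. Over 10 mast cell and basophil markers the sum came to 17700 and 13500 for vector, 43800 and 43000 for BCR/ABL and 66400 and 57700 for imatinib, and over 12 granulocyte markers it ranged from 51100 to 92800. The 3-prime to 5-prime ratio of the beta-actin control was lowest in BCR/ABL, at 1.48 and 1.3, and lay between 1.55 and 1.81 on the other arrays. In such bulk samples fewer cells of a type and less RNA per cell cannot be told apart.

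**Figure D1:**
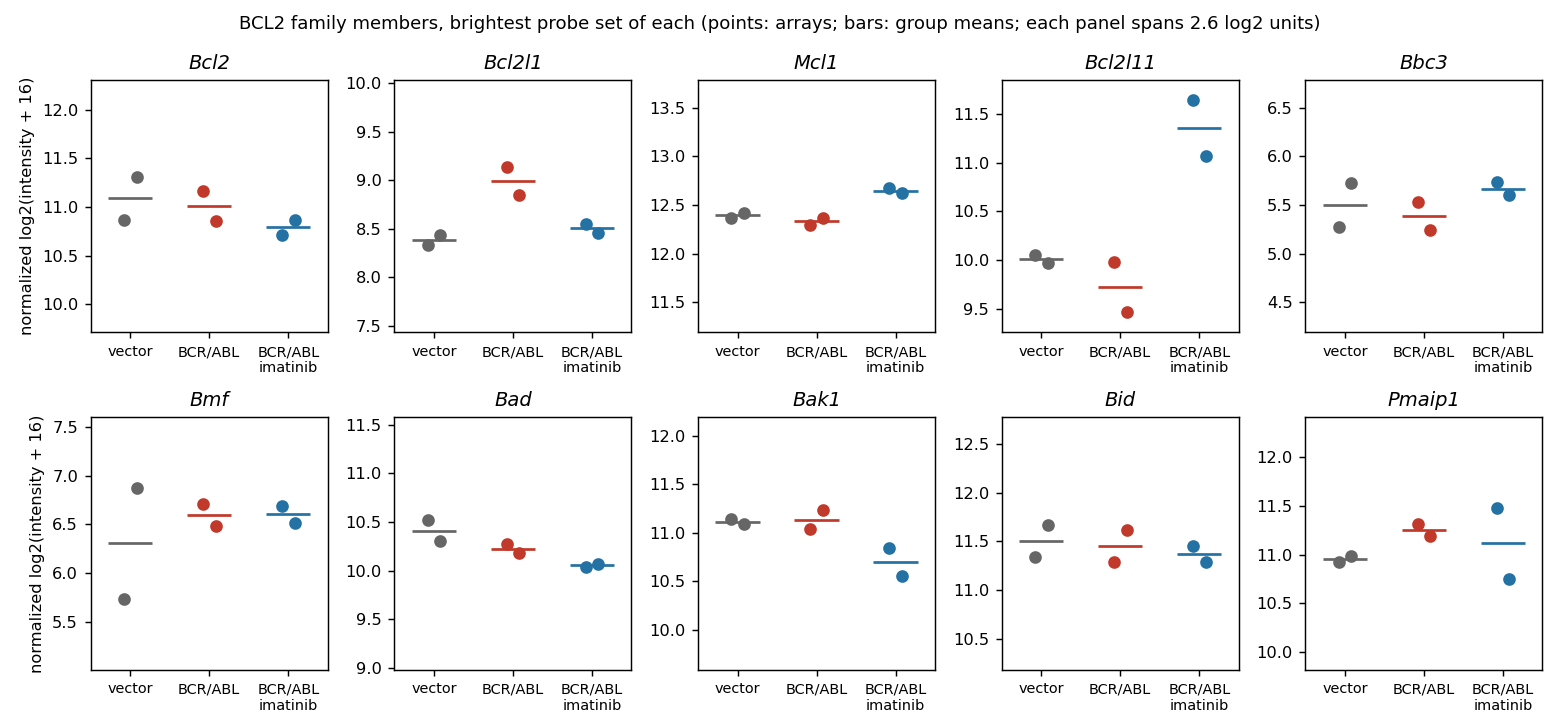
Normalized log2(intensity + 16) of the brightest probe set of each of the 10 members on the 6 arrays; points are arrays, bars are group means, and every panel spans the same height. Bcl2l11 with imatinib, at 11.65 and 11.07, stands above all 4 other arrays, Bcl2l1 is highest in BCR/ABL, and Bid is nearly level.

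Across the 10 members, Bcl2l11 and Mcl1 were higher and Bak1 lower in imatinib cells than in untreated BCR/ABL cells, and Bcl2l1 was highest in untreated BCR/ABL cells, each without overlap of the arrays. Bad and Bbc3 did not overlap between imatinib and BCR/ABL cells either. That made 6 of 10 members by brightest probe set, where 49.6% of all probe sets did not overlap. With array medians set equal, however, the Mcl1 difference was -0.07 on its brightest probe set, or 0.20 with the shift of all probe sets taken off again. Under quantile normalization none of the differences named passed the test across all probe sets. limma called 0 of the 32 member probe sets at an adjusted p under 0.05 in each of the 3 comparisons, where it called 0.0613% of all probe sets for BCR/ABL against vector, 0% for imatinib against BCR/ABL and 0.0446% for imatinib against vector. At an unadjusted p under 0.05 the members had 3 probe sets in the first comparison (9.38%, against 11.5% of all), 11 in the second (34.4%, against 14.6%) and 11 in the last (34.4%, against 13.8%). The first share is below that of all probe sets. On each array 36.1% to 41.5% of all probe sets other than controls had an intensity below 16, and the shares were not matched for level. Probe sets of 1 gene are not independent; with the brightest probe set of each gene the counts were 1, 3 and 4 of 10, against 12.7%, 17% and 16.6% of all genes. Arrays did not overlap for 12, 19 and 15 of the 32 (37.5%, 59.4% and 46.9%, against 43.2%, 49.6% and 42.1%). The median difference over the 10 members was -0.05, -0.11 and 0.14, beside 0.014, -0.007 and -0.001 over all genes. The comparisons share arrays, so their counts are not separate evidence.

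**Figure D2:**
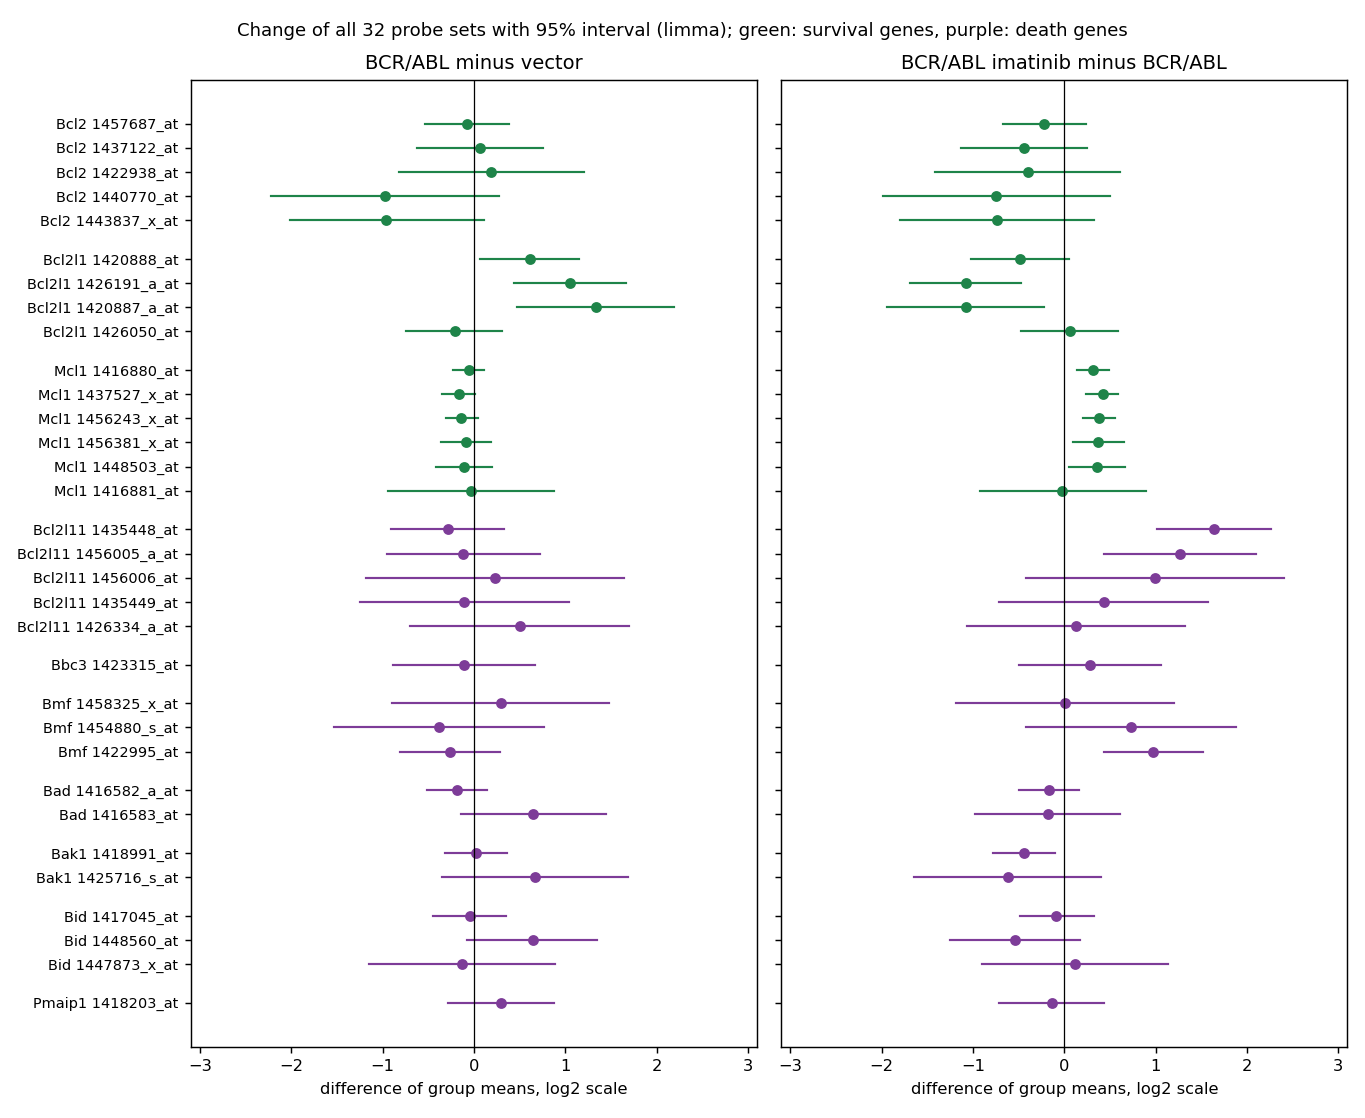
Difference of group means on the log2 scale for all 32 member probe sets, BCR/ABL minus vector on the left and BCR/ABL imatinib minus BCR/ABL on the right; dots are limma estimates, bars their 95% intervals, green marks survival genes and purple death genes. On the right, intervals that do not reach 0 belong to Bcl2l1, Mcl1, Bcl2l11, Bmf and Bak1, and on the left to Bcl2l1 alone.

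Bcl2l1 was higher in BCR/ABL cells than in both other groups on 3 of its 4 probe sets. The brightest, 1420888_at, read 8.33 and 8.44 for vector, 9.14 and 8.85 for BCR/ABL, and 8.55 and 8.46 for imatinib. Both BCR/ABL arrays thus lay above the other 4. BCR/ABL minus vector was 0.61 (SE 0.22, 95% interval 0.07 to 1.15, adjusted p = 0.397), a 1.52-fold difference. For 1426191_a_at the values were 7.84 and 7.73, 8.87 and 8.80, and 7.65 and 7.86, with a difference of 1.05 (SE 0.25, adjusted p = 0.278). For 1420887_a_at they were 6.56 and 7.12, 8.28 and 8.07, and 7.05 and 7.15, with a difference of 1.33 (SE 0.35, adjusted p = 0.305). These 3 probe sets therefore put the gene 1.52-fold to 2.52-fold higher in BCR/ABL than in vector cells.

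Imatinib cells had Bcl2l1 values close to those of vector cells. Imatinib minus BCR/ABL was -0.49 (SE 0.22, adjusted p = 0.388) on 1420888_at, -1.08 (SE 0.25, 95% interval -1.69 to -0.47, adjusted p = 0.153) on 1426191_a_at and -1.08 (SE 0.35, adjusted p = 0.248) on 1420887_a_at. Against vector the 3 differences were 0.12, -0.03 and 0.26, with intervals between -0.64 and 1.12, so a difference of up to about that size is not excluded. The fourth probe set, 1426050_at, lay near the floor on all arrays, from 4.13 to 4.67, with differences between -0.21 and 0.06. Which splice form of Bcl2l1 each probe set detects was not analysed here.

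Mcl1, a short-lived survival protein that stem cells need, was among the brightest members and its values were slightly higher with imatinib under quantile normalization, while with array medians set equal 3 of its 5 brightest probe sets turned in sign. Relative to the shift of all probe sets under that scaling, all 5 were above 0. Taking the shift off removes the constant that the scaling had put in, so this is no separate check of the scaling. Probe set 1416880_at read 12.37 and 12.42 for vector, 12.30 and 12.37 for BCR/ABL, and 12.68 and 12.62 for imatinib. The imatinib arrays were the highest, while vector and BCR/ABL met at 12.37. Imatinib minus BCR/ABL was 0.31 (SE 0.07, 95% interval 0.14 to 0.49, adjusted p = 0.146), a 1.24-fold difference. On 1437527_x_at the values were 12.35 and 12.46, 12.23 and 12.25, and 12.66 and 12.66, with a difference of 0.42 (SE 0.07, adjusted p = 0.12), the smallest adjusted p among the 6 probe sets of Mcl1.

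In all, 5 of the 6 Mcl1 probe sets had imatinib arrays above both other groups (on 1448503_at the lower imatinib and the higher vector array both round to 11.93), with differences from BCR/ABL of 0.31 to 0.42, and the sixth, 1416881_at, had a difference of -0.02 with an interval of -0.92 to 0.89. With tests limited to probe sets above the 50th percentile of mean level, 1437527_x_at was among the 211 that passed for imatinib against BCR/ABL (adjusted p = 0.0479). With array medians set equal in place of quantile normalization, its difference was 0.05 and that of 1416880_at was -0.07, while the median of all probe sets shifted by -0.27; relative to that shift they were 0.31 and 0.20. Against vector cells, BCR/ABL differences ran from -0.17 to -0.03 over the 6 probe sets, and with array medians set equal all 6 were above 0, at 0.03 to 0.21, beside a shift of all probe sets of 0.20.

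**Figure D3:**
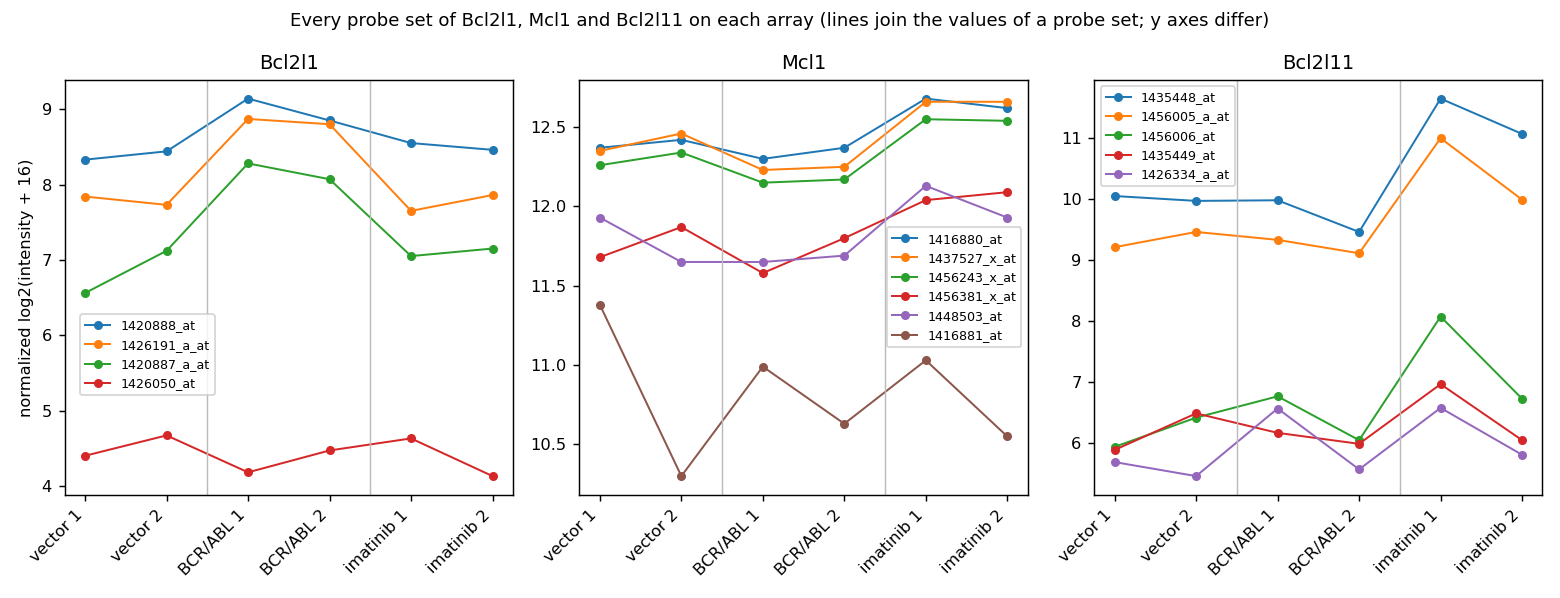
Normalized log2(intensity + 16) of every probe set of Bcl2l1, Mcl1 and Bcl2l11 on each of the 6 arrays; lines join the values of 1 probe set and the y axes differ between panels. Of the Bcl2l1 probe sets 3 peak in BCR/ABL, 5 of the Mcl1 probe sets are highest with imatinib, and the 2 brightest Bcl2l11 probe sets are highest with imatinib. With array medians set equal the differences of these 5 Mcl1 probe sets from BCR/ABL are -0.07 to 0.05. With the shift of all probe sets under that scaling, -0.27, taken off again, they are 0.20 to 0.31.

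Bcl2, the founding survival gene, gave values that differed by probe set. The brightest, 1457687_at, read 10.87 and 11.31 for vector, 11.16 and 10.86 for BCR/ABL, and 10.71 and 10.87 for imatinib, and the 3 groups overlapped. Its differences were -0.08 for BCR/ABL against vector (SE 0.19, 95% interval -0.54 to 0.38) and -0.22 for imatinib against BCR/ABL (SE 0.19, adjusted p = 0.677). The next, 1437122_at, read 10.19 and 10.78, 10.60 and 10.49, and 9.78 and 10.44, with both imatinib arrays below both BCR/ABL arrays and a difference of -0.44 (SE 0.28, adjusted p = 0.561). Probe set 1422938_at ranged from 8.39 to 9.45, and its groups overlapped in every comparison.

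The 2 dimmest Bcl2 probe sets were highest in vector. Probe set 1440770_at read 8.50 and 8.09 for vector, 6.80 and 7.84 for BCR/ABL, and 6.14 and 7.0 for imatinib. Probe set 1443837_x_at read 8.22 and 7.74, 6.75 and 7.29, and 5.93 and 6.63. Imatinib minus vector was -1.72 (SE 0.51, adjusted p = 0.255) and -1.70 (SE 0.43, 95% interval -2.76 to -0.63, adjusted p = 0.217), against -0.37 to -0.21 for the other 3 probe sets. The median level of the 12 B cell markers was 10.90 and 8.74 for vector, 5.92 and 6.78 for BCR/ABL, and 4.92 and 5.39 for imatinib. The 6 arrays stood in the same order for this median and for 1443837_x_at, from vector replicate 1 down to imatinib replicate 1. For 1440770_at the order was not the same, since imatinib replicate 2 at 7.0 lay above BCR/ABL replicate 1 at 6.80. The part of B lineage cells in the Bcl2 values was not tested.

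**Figure D4:**
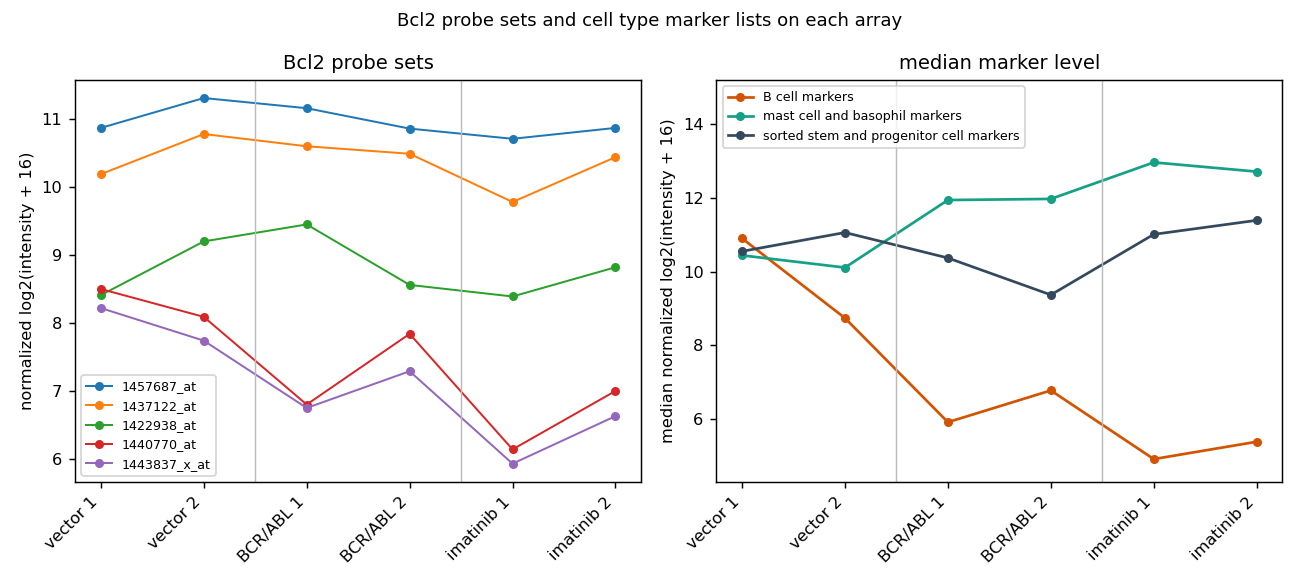
Normalized log2(intensity + 16) of the 5 Bcl2 probe sets (left) and the median of 3 marker lists (right) on each of the 6 arrays; lines join the values of 1 probe set or list. The 2 dimmest Bcl2 probe sets and the B cell markers are highest in vector replicate 1 and lowest in imatinib replicate 1, while mast cell and basophil markers go from 10.44 and 10.11 in vector to 12.96 and 12.71 with imatinib.

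Bcl2l11, which encodes the BH3-only protein Bim, had the largest difference of all members between imatinib and untreated BCR/ABL cells. Its brightest probe set, 1435448_at, read 10.05 and 9.97 for vector, 9.98 and 9.46 for BCR/ABL, and 11.65 and 11.07 for imatinib. The deposited intensities were 1030 and 971, 999 and 681, and 3200 and 2100. Both imatinib arrays lay above the other 4, and BCR/ABL replicate 1 was level with vector. Imatinib minus BCR/ABL was 1.64 (SE 0.25, 95% interval 1.02 to 2.26, unadjusted p = 0.000664, adjusted p = 0.108), a 3.12-fold difference. Imatinib minus vector was 1.35 (SE 0.25, 95% interval 0.73 to 1.97, adjusted p = 0.15).

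BCR/ABL cells themselves had a Bcl2l11 difference from vector of -0.29 (SE 0.25, 95% interval -0.91 to 0.33, adjusted p = 0.701). The next brightest probe set, 1456005_a_at, read 9.21 and 9.46, 9.33 and 9.11, and 11.0 and 9.99, so that imatinib replicate 1 was the higher of its group on both. Its imatinib minus BCR/ABL difference was 1.27 (SE 0.34, adjusted p = 0.183). The other 3 Bcl2l11 probe sets were dim, between 5.45 and 8.07, with imatinib minus BCR/ABL differences of 0.13 to 0.99. All 5 differences were above 0 with all arrays, and they were smaller without imatinib replicate 1. Without it the 2 brightest probe sets gave 1.35 and 0.77, 1456006_at gave 0.32, and the other 2 turned, 1435449_at to -0.03 and 1426334_a_at to -0.26. Without BCR/ABL replicate 2, 1426334_a_at was -0.37.

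The call for Bcl2l11 depended on the set of probe sets and the scaling. With tests limited to probe sets above the 50th percentile, 1435448_at was among the 211 that passed for imatinib against BCR/ABL (adjusted p = 0.0436). It also passed with array medians set equal (1.31, adjusted p = 0.0378), where 1200 of all 35877 probe sets did. Relative to all probe sets that difference was 1.57. Averaging all 5 probe sets gave 0.89 (adjusted p = 0.348). Beside this, mast cell and basophil markers had a median difference of 0.82 for imatinib against BCR/ABL, above 0 for 9 of 10 and with 0 called. Stem and progenitor markers had one of 0.61, above 0 for 9 of 9 and with 0 called, and Kit and Gata2 are on both lists. Megakaryocyte markers had one of 0.80, above 0 for 6 of 7 and with 0 called, and their summed intensity came to 1880 and 2020 for vector, 3950 and 3330 for BCR/ABL, and 6990 and 6640 for imatinib. The part of these markers' cells in the Bcl2l11 difference was not tested.

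Bmf, a BH3-only protein that sits on the actin and myosin scaffold until released, was dim. Its brightest probe set, 1458325_x_at, read 5.73 and 6.88 for vector, 6.71 and 6.48 for BCR/ABL, and 6.69 and 6.52 for imatinib, all within the spread of vector. Probe set 1454880_s_at read 6.68 and 6.05, 6.44 and 5.54, and 6.66 and 6.76. Probe set 1422995_at lay near the floor in BCR/ABL, at 4.11 and 4.15, and in vector at 4.68 and 4.11, and read 5.24 and 4.97 with imatinib. Its imatinib minus BCR/ABL difference was 0.97 (SE 0.22, 95% interval 0.43 to 1.52, adjusted p = 0.148). The intensities behind it were 1.1 and 1.56 in BCR/ABL against 23.7 and 19.6 with imatinib, so the size of this difference depends on the added constant. Over the other processing settings tried it ran from 0.33 to 2.93, against 0.89 to 1.95 for Bcl2l11 1435448_at.

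Bbc3, encoding Puma, was also dim on its only probe set, 1423315_at, at 5.27 and 5.73 for vector, 5.53 and 5.24 for BCR/ABL, and 5.74 and 5.6 for imatinib. The imatinib arrays were above the BCR/ABL arrays but not above vector. The difference of 0.28 from BCR/ABL (SE 0.32, adjusted p = 0.763) was smaller than its standard error.

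Pmaip1, encoding Noxa, which binds Mcl1, was bright on its only probe set, 1418203_at. It read 10.92 and 10.99 for vector, 11.31 and 11.19 for BCR/ABL, and 11.48 and 10.75 for imatinib. The BCR/ABL arrays lay above vector by 0.29 (SE 0.23, adjusted p = 0.672), and the imatinib arrays were the highest and the lowest of all 6.

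Bad, a BH3-only protein that survival kinases switch off by phosphorylation, gave opposite signs on its 2 probe sets in both comparisons with vector. Probe set 1416582_a_at read 10.52 and 10.30 for vector, 10.27 and 10.18 for BCR/ABL, and 10.04 and 10.07 for imatinib, with no overlap between groups. The BCR/ABL minus vector difference was -0.19 (SE 0.14, adjusted p = 0.641) and imatinib minus vector -0.36 (SE 0.14, 95% interval -0.69 to -0.03, adjusted p = 0.337). Probe set 1416583_at read 8.12 and 9.0, 9.30 and 9.11, and 9.13 and 8.92, with a BCR/ABL minus vector difference of 0.65 (SE 0.32, adjusted p = 0.512). Vector replicate 1 was the lowest array there. Against vector no direction can be given for Bad. Imatinib minus BCR/ABL was -0.17 on 1416582_a_at (SE 0.14, adjusted p = 0.649) and -0.18 on 1416583_at (SE 0.32, adjusted p = 0.867), the second with overlapping arrays.

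Bid, which caspase-8 cleaves to link death receptors to mitochondria, was bright and nearly level on 1417045_at, at 11.34 and 11.67 for vector, 11.29 and 11.62 for BCR/ABL, and 11.45 and 11.29 for imatinib. Every difference there was between -0.14 and -0.05, with intervals inside -0.54 to 0.35. Probe set 1448560_at read 7.89 and 8.56, 8.94 and 8.78, and 8.31 and 8.34, highest in BCR/ABL, with differences of 0.64 from vector (SE 0.29, adjusted p = 0.478) and -0.54 with imatinib (SE 0.29, adjusted p = 0.476). The dimmest, 1447873_x_at, lay between 5.78 and 6.60 with overlapping groups.

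Bak1, the effector, was lowest with imatinib on its brighter probe set. Probe set 1418991_at read 11.14 and 11.09 for vector, 11.04 and 11.23 for BCR/ABL, and 10.84 and 10.55 for imatinib. Both imatinib arrays were below the other 4. The imatinib minus BCR/ABL difference was -0.44 (SE 0.14, 95% interval -0.78 to -0.10, adjusted p = 0.238), and imatinib minus vector was -0.42 (SE 0.14, adjusted p = 0.291). BCR/ABL minus vector was 0.02, with an interval of -0.32 to 0.36. The dimmer 1425716_s_at read 6.67 and 7.59, 7.72 and 7.87, and 7.01 and 7.34, with an imatinib minus BCR/ABL difference of -0.62 (SE 0.42, adjusted p = 0.575). There vector replicate 1 was the lowest array, and imatinib minus vector was 0.05.

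Genes that work around the family were read from 8 lists with 88 genes, of which 73 were measured. limma called 0 of the 73 in each comparison. At an unadjusted p under 0.05 there were 7 higher and 5 lower in BCR/ABL against vector (16.4%, against 12.7% of all genes), 16 higher and 9 lower with imatinib against BCR/ABL (34.2%, against 17%), and 10 higher and 7 lower with imatinib against vector (23.3%, against 16.6%). These shares were not matched for level either. The median differences of single lists with imatinib against BCR/ABL ran from -0.08 for kinases and binding partners to 0.19 for transcription factors, beside -0.007 for all genes.

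Among mitochondrial release factors, caspases and their inhibitors, 4 of 16 genes were higher and 4 lower at an unadjusted p under 0.05 with imatinib against BCR/ABL. Cycs, the cytochrome c that leaves through Bak1 pores, read 12.74 and 12.68 for vector, 12.73 and 12.80 for BCR/ABL, and 11.99 and 12.08 for imatinib. Both imatinib arrays were below the other 4, and imatinib minus vector was -0.68 (SE 0.07, adjusted p = 0.0805). Birc2 and Birc3 encode inhibitor of apoptosis proteins. Their imatinib minus BCR/ABL differences were 0.74 for Birc2 (SE 0.17, adjusted p = 0.146) and 0.80 for Birc3 (SE 0.17, adjusted p = 0.14). Birc3 read 10.26 and 9.94, 9.89 and 10.03, and 10.88 and 10.63.

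In the death receptor arm upstream of Bid, 9 of 10 genes were measured. Fas, a death receptor, read 5.70 and 5.97 for vector, 7.26 and 6.89 for BCR/ABL, and 7.40 and 6.88 for imatinib, so both BCR/ABL groups lay above vector. The difference was 1.24 without imatinib (SE 0.40, adjusted p = 0.354) and 1.31 with it (SE 0.40, adjusted p = 0.264). Cflar, which blocks caspase-8, read 11.10 and 11.16, 10.74 and 10.67, and 11.11 and 11.52, lowest in BCR/ABL, with an imatinib minus BCR/ABL difference of 0.61 (SE 0.15, adjusted p = 0.17). Tnfsf10, encoding the ligand TRAIL, differed by -0.62 in BCR/ABL against vector and by 0.74 with imatinib against BCR/ABL (adjusted p = 0.491 and 0.328). Tnfrsf10b had the opposite signs, 0.78 in BCR/ABL against vector and -0.75 with imatinib against BCR/ABL (adjusted p = 0.526 and 0.472).

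Of 11 measured kinases and binding partners, Pim2 and Pim3, kinases that phosphorylate Bad, had the largest differences. Pim2 read 7.89 and 9.27 for vector, 10.39 and 9.84 for BCR/ABL, and 9.45 on both imatinib arrays, with a BCR/ABL minus vector difference of 1.54 (SE 0.46, adjusted p = 0.334). Pim3 read 11.63 and 11.43, 12.27 and 12.07, and 11.72 and 11.31, with differences of 0.64 from vector (SE 0.16, adjusted p = 0.29) and -0.65 with imatinib (SE 0.16, adjusted p = 0.166). Akt1 differed by -0.44 with imatinib against BCR/ABL (adjusted p = 0.302). Pim1, named after its values were seen, had differences of 0.10 from vector and 0.11 with imatinib against BCR/ABL.

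Among 16 transcription factors reported to act on members, 5 were higher and 2 lower with imatinib against BCR/ABL at an unadjusted p under 0.05. Foxo1, a FOXO factor, read 9.77 and 8.67 for vector, 7.63 and 7.37 for BCR/ABL, and 8.65 and 8.42 for imatinib. Its differences were -1.72 for BCR/ABL against vector (SE 0.40, adjusted p = 0.271) and 1.03 with imatinib (SE 0.40, adjusted p = 0.316). Foxo4 read 11.05 and 11.03, 10.32 and 10.39, and 10.77 and 11.29, also lowest in BCR/ABL. It was named although Hlf and Atf5 had larger differences without overlap. Hlf differed by 1.0 with imatinib against BCR/ABL (SE 0.70, adjusted p = 0.591). Atf5 was highest in BCR/ABL, by 0.86 against vector (SE 0.28, adjusted p = 0.367), and differed by -0.81 with imatinib against BCR/ABL (SE 0.28, adjusted p = 0.272). Foxo3, named after its values were seen because it is the factor best known for Bim, read 12.29 and 12.50, 12.34 and 12.22, and 12.51 and 12.76, with an imatinib minus BCR/ABL difference of 0.36 (SE 0.12, adjusted p = 0.261). Ddit3, the stress factor CHOP, read 8.15 and 8.81, 8.95 and 8.79, and 10.14 and 10.13, and its imatinib minus BCR/ABL difference was 1.27 (SE 0.26, adjusted p = 0.132).

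Of 10 genes for turnover of the Mcl1 and Bim proteins or transcripts, 4 were higher and 0 lower with imatinib against BCR/ABL at an unadjusted p under 0.05. Zfp36 and Zfp36l1, which bind RNA and promote its decay, differed by 0.74 for Zfp36 (SE 0.21, adjusted p = 0.198) and 0.73 for Zfp36l1 (SE 0.19, adjusted p = 0.183). Of the remaining family genes, Bcl2l2, a survival gene, read 9.33 and 9.70 for vector, 9.80 and 9.56 for BCR/ABL, and 10.06 and 9.93 for imatinib. Bok, an effector relative, differed by -0.86 with imatinib against BCR/ABL (SE 0.45, adjusted p = 0.455) while Bcl2l10 lay near the floor, between 4.08 and 4.14. Bnip3, a BH3-like gene, differed by 1.03 in BCR/ABL against vector (SE 0.18, adjusted p = 0.169). Bcl2l15 differed by 1.1 in BCR/ABL against vector (SE 0.54, adjusted p = 0.509) and by -1.13 with imatinib against BCR/ABL (SE 0.54, adjusted p = 0.416).

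Likeness of profile was described for Bcl2l1 and Bcl2l11 as the root mean square difference over the 6 arrays after each gene was centred on its own mean, among 10051 genes above the 50th percentile of mean level. The nearest to Bcl2l1 were Sh3glb2 at 0.038, Lins1 at 0.060, Oxnad1 at 0.073, Dmwd at 0.084 and Sdr39u1 at 0.086. Sh3glb2 read 8.22 on both vector arrays, 8.92 and 8.66 for BCR/ABL, and 8.36 and 8.31 for imatinib. The nearest to Bcl2l11 were Pde3b, a phosphodiesterase gene, at 0.110, Gm16845 at 0.169, Tnfaip3, a brake on NF-kappaB signalling, at 0.182, Csrp3 at 0.186 and 1700018L02Rik at 0.188. Pde3b read 9.36 and 9.41, 9.17 and 8.71, and 10.77 and 10.21. These are the smallest of many differences over few arrays, and no test was made.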

How the data were processed

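RNA of 6 sorted samples was measured on Affymetrix arrays. The deposited values are linear intensity values, 1 per probe set, made with Affymetrix Expression Console and MAS5 per the submitters' processing notes, with versions not given in the sources used here. After trimming 2% at each end every array had a mean of 500. The design text names a whole-transcript array, while the probe set names belong to an older 3-prime array of the mouse genome and were used as given. Of 45101 probe sets, 64 controls and 9160 without a symbol were left out; 34945 had 1 symbol and 932 several. A match by Entrez ID to RefSeq (GRCm38.p6) changed 0 symbols.

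Groups and replicate numbers came from sample titles. Values were transformed as log2(value + 16), quantile normalized and tested with limma 3.58.1 in R 4.3.3 (lmFit, eBayes with trend) in 1 model of all 6 arrays with 3 residual degrees of freedom. Tests were two-sided, adjusted by Benjamini-Hochberg over 35877 probe sets, with 0.05 as threshold. The number of arrays limits precision. SE is limma's moderated standard error and n is 2 in every group. Fold differences of dim genes are understated. The fit was tested on simulated data only for changes larger than any member difference here. That test therefore does not show how well differences of the size reported are found.

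The members and lists were chosen with earlier results of these data known. All member probe sets are described, and each list gene is represented by its brightest probe set. Of each list up to 3 genes with the largest difference without overlap were to be named. Foxo3, Foxo4, Atf5, Pim1 and Cflar were named outside that rule. Same-numbered arrays deviated together only weakly (correlations of -0.08, 0.16 and 0.15), so the numbers were not taken to pair samples. Alternatives were other constants, scalings, filters and variance priors, a replicate block, fits of 2 groups and leaving out each array. BH3 segments of the proteins were planned and not analysed here.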

Additional observations from a re-analysis of the deposited data

How the results depend on the processing

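Of 1143 alternative values for 25 member probe sets, 50 turned in sign and 3 newly passed the threshold; of 300 for the other 7, 30 turned and 0 passed. The 3 were Bcl2l11 and Mcl1 with imatinib against BCR/ABL, given in the report, so 2 member probe sets passed above the 50th percentile and 1 of 32 with array medians set equal. In that comparison 211 probe sets in all passed above the 50th percentile, and 1200 of 35877 with array medians set equal. The replicate block changed no member's call. With 2 arrays a group, signal near background limits Bmf and Bbc3.

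All probe sets called, BCR/ABL against vector: 22 as tested, 83 with constant 1, 298 with array medians (265 higher), 132 above the 50th percentile, 0 without trend, 42 with a robust prior, 14 with only the 2 groups, and 0 to 38 when an array was left out (38 without vector replicate 1, 2 without vector replicate 2, 0 without either BCR/ABL array). Imatinib against BCR/ABL: 0 as tested, 3 with constant 1, 1200 with array medians (67 higher) and 211 above the 50th percentile. Imatinib against vector: 16 as tested, 78 with constant 1, 3 with constant 64, 275 with array medians (201 higher, against 15 of 16 as tested), 181 above the 50th percentile, 0 without trend, 28 with a robust prior, 9 with the replicate block, 0 with only the 2 groups, and 0 to 50 when an array was left out (30 and 50 without vector replicate 1 or 2, 0 without either BCR/ABL array or imatinib replicate 1, 10 without imatinib replicate 2). 

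The turned differences that follow are those of the 25 probe sets only, and the 30 of the other 7 probe sets are not listed. With array medians set equal, the median of all probe sets shifted. The shift was 0.20 for BCR/ABL against vector, -0.27 for imatinib against BCR/ABL and -0.09 for imatinib against vector. Relative to it, 31, 32 and 30 of the 32 member probe sets kept their sign as tested. Taking the shift off removes the constant that this scaling had put in, so these counts are no check of the scaling. All differences listed next for that scaling are among those that kept their sign relative to the shift. With array medians set equal, differences that turned in sign were for BCR/ABL against vector Bcl2 1457687_at 0.15, Mcl1 1416880_at 0.14, Mcl1 1437527_x_at 0.03, Mcl1 1456243_x_at 0.06, Mcl1 1456381_x_at 0.14, Mcl1 1448503_at 0.11, Bcl2l11 1456005_a_at 0.09, Bad 1416582_a_at 0.06, Bid 1417045_at 0.18, and for imatinib against BCR/ABL Mcl1 1416880_at -0.07, Mcl1 1456381_x_at -0.01, Mcl1 1448503_at -0.02, Bmf 1458325_x_at -0.03, and for imatinib against vector Bak1 1425716_s_at -0.01. With a mean over each gene's probe sets, differences that turned in sign were for BCR/ABL against vector Bcl2l11 1435448_at 0.04, Bmf 1458325_x_at -0.12, Bad 1416582_a_at 0.23, Bid 1417045_at 0.15, and for imatinib against vector Bad 1416582_a_at 0.05. With the deposited scaling only, differences that turned in sign were for imatinib against vector Bcl2l1 1426191_a_at 0.04. When an array was left out, those that turned for BCR/ABL against vector ran over Bcl2 1457687_at -0.30 to 0.14, Bcl2 1437122_at -0.23 to 0.35, Mcl1 1456381_x_at -0.20 to 0.03, Mcl1 1448503_at -0.26 to 0.03, Bcl2l11 1456005_a_at -0.25 to 0.01, Bbc3 1423315_at -0.33 to 0.12, Bmf 1458325_x_at -0.29 to 0.87, Bmf 1454880_s_at -0.84 to 0.07, Bmf 1422995_at -0.55 to 0.02, Bak1 1418991_at -0.07 to 0.12, Bid 1417045_at -0.21 to 0.11. When an array was left out, those that turned for imatinib against BCR/ABL ran over Bmf 1458325_x_at -0.11 to 0.12, Bid 1417045_at -0.25 to 0.08, Pmaip1 1418203_at -0.50 to 0.24. When an array was left out, those that turned for imatinib against vector ran over Bcl2l1 1426191_a_at -0.14 to 0.07, Bcl2l1 1420887_a_at -0.03 to 0.54, Bbc3 1423315_at -0.06 to 0.41, Bmf 1458325_x_at -0.28 to 0.88, Bak1 1425716_s_at -0.42 to 0.51, Bid 1417045_at -0.30 to 0.03, Bid 1448560_at -0.25 to 0.43, Pmaip1 1418203_at -0.21 to 0.53. 
The causes were not tested.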
